A study of Mus musculus with 6 samples.

Results

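The splicing factor and hnRNP genes described here are 59 of the 10698 genes named by probes that name a single gene. They were chosen by symbol alone. A gene was taken if its symbol starts with Srsf, Hnrnp, Sf3a, Sf3b, Snrp or Prpf, or with Lsm and a digit, or if it is Sfpq, Nono, Ptbp1 or U2af1. U2af2, which the same choice would include, was not analysed here. The 59 genes had 64 probes. Of these genes 52 were measured on every one of the 6 arrays by some probe, and the remaining 7 are described apart because they could not enter the main test.

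The cells were RAW 264.7, a mouse line that resembles macrophages. Treated cells had received lipopolysaccharide (LPS) at 100 ng/ml with LPS-binding protein at 100 pM and were taken at 16 hours, and untreated cells had been cultured for the same 16 hours. The comparison asks which transcripts differ between these 2 groups. RNA of both groups was hybridised together on each of 6 arrays with 2 dyes. Treated RNA carried Cy5 on 3 arrays, called the Cy5 orientation here, and Cy3 on the other 3, the Cy3 orientation. Each orientation has sets 1, 2 and 3, always given in this order. Nothing in the labels makes the sets separate cultures, so a p-value here covers only the spread from set to set, which can be technical. The labels also spell the line as 264.4.

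Before translation, introns are removed by the spliceosome, which is built on small nuclear ribonucleoproteins (snRNPs), each a small RNA with a ring of Sm or LSm proteins and proteins of its own. SR proteins bind exons and mostly promote the use of nearby splice sites, whereas hnRNP proteins coat nascent RNA and often oppose it. In macrophages answering LPS, alternative splicing shapes the transcripts of several signalling genes.

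All values below are differences, given as log2 ratios of treated over untreated cells, and never levels. Probes of a gene were averaged, a set is the mean of its 2 orientations, and errors are SDs over the 3 sets (n = 3). A gene was called when its adjusted p from limma was under 0.05, with Benjamini-Hochberg adjustment over all 9607 genes tested. The variance that limma uses for a gene is moderated with those of all genes. A p-value therefore does not rest on the printed SD alone. Ratios were read as Cy5 divided by Cy3, a likely direction that no source states. With it, Il6, a cytokine that LPS is known to induce, stood at 5.11 ± 0.47. The arrays hold 2-colour ratios, so the macrophage markers of the line could not be checked as levels, and fewer cells with a transcript cannot be told apart from less of it per cell. Missing ratios made up 9.56% to 12.9% of the probes of an array, and the number of arrays limits the precision.

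After 16 hours of LPS, 29 of the 52 tested splicing factor and hnRNP genes fell and 0 rose. Over all 9607 genes, 14.6% were called lower and 16.8% higher. At an unadjusted p under 0.05, 34 members were lower and 1 was higher, and over all 9607 genes 1860 were lower and 2002 higher. The median member stood at -0.32, against -0.0076 over all genes tested, and 45 of 52 members were below 0. On all 6 arrays 29 members were below 0, against 17.0% of all genes, and 1 was above 0. Most falls were modest. A called fall of at least 1.5-fold was seen in 10 members, against 4.03% of all genes, and 2 members fell at least 2-fold, as did 75 of all 9607 genes. In the Cy5 orientation alone 20 members were called lower (10.4% of all genes), and in the Cy3 orientation alone 24 (14.5%). Without set 2 the count was 18 (9.90% of all genes). With missing ratios kept as values of 0, genes without complete probes enter too, and it was 16 of 59 members (8.44% of 10698 genes).

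**Figure D1:**
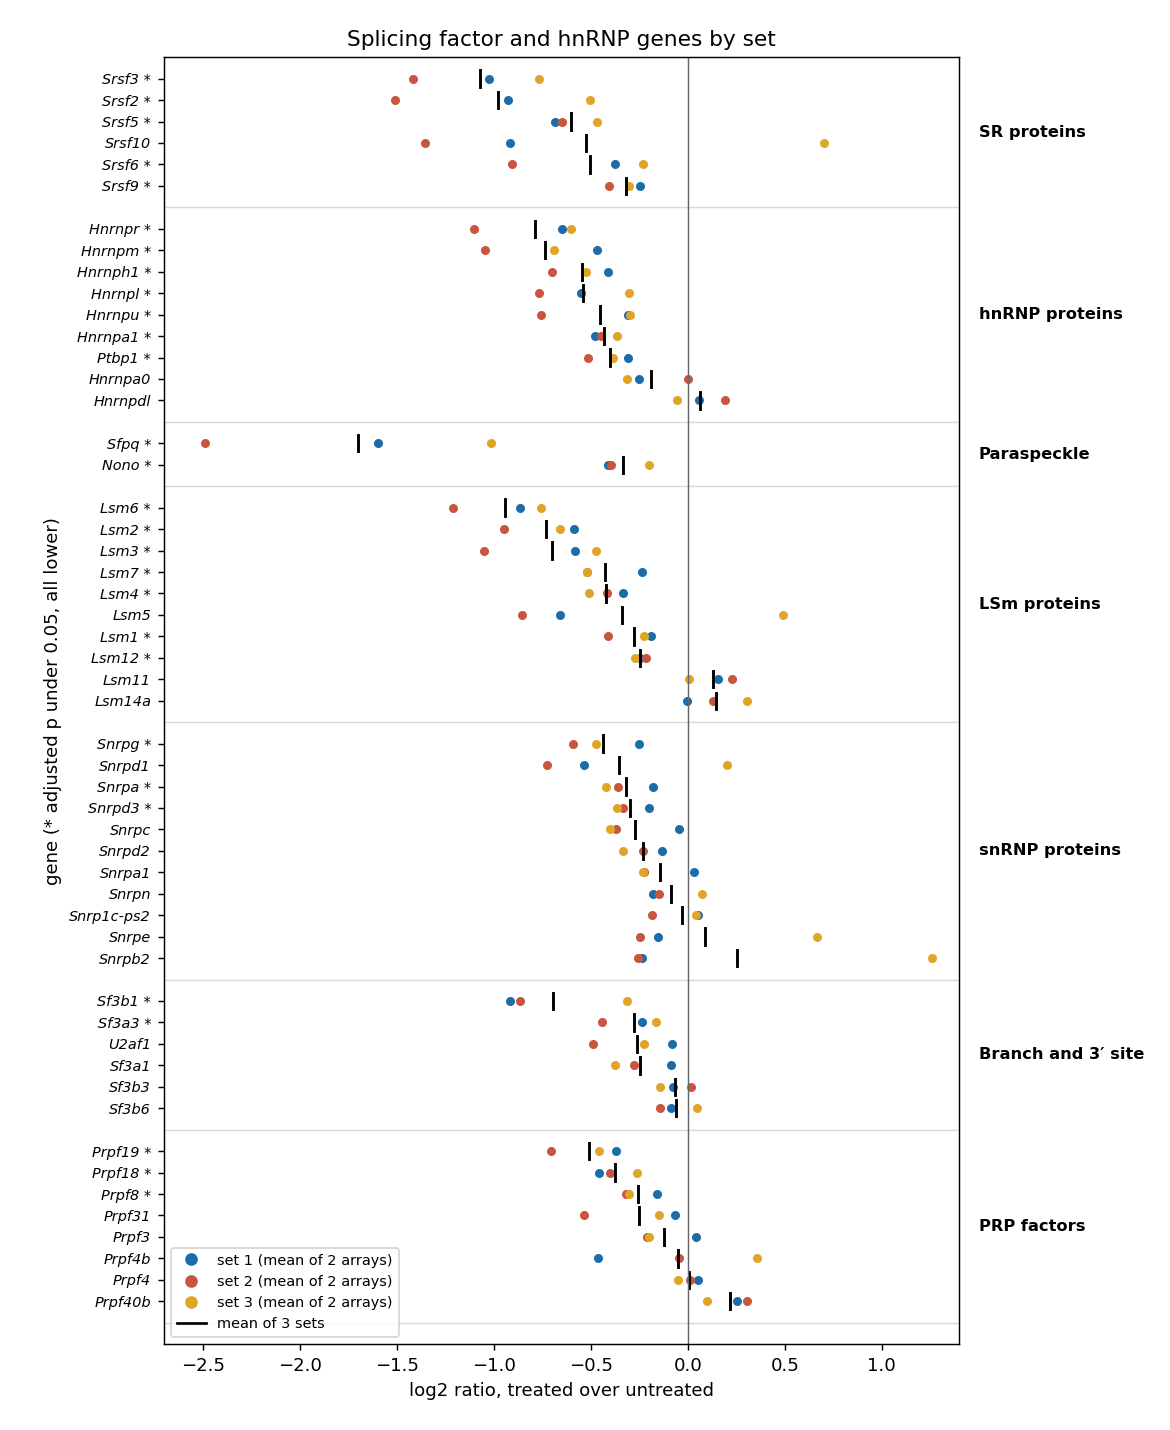
Log2 ratio of treated over untreated cells (x axis) of each of the 52 tested splicing factor and hnRNP genes (y axis), grouped by role. Points are the 3 sets, each the mean of 2 arrays, bars are the mean of the sets, and asterisks mark the 29 genes called lower. Sfpq lies farthest to the left at -1.70, and 5 genes have a set 3 point to the right of 0 and far from their other points.

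**Figure D2:**
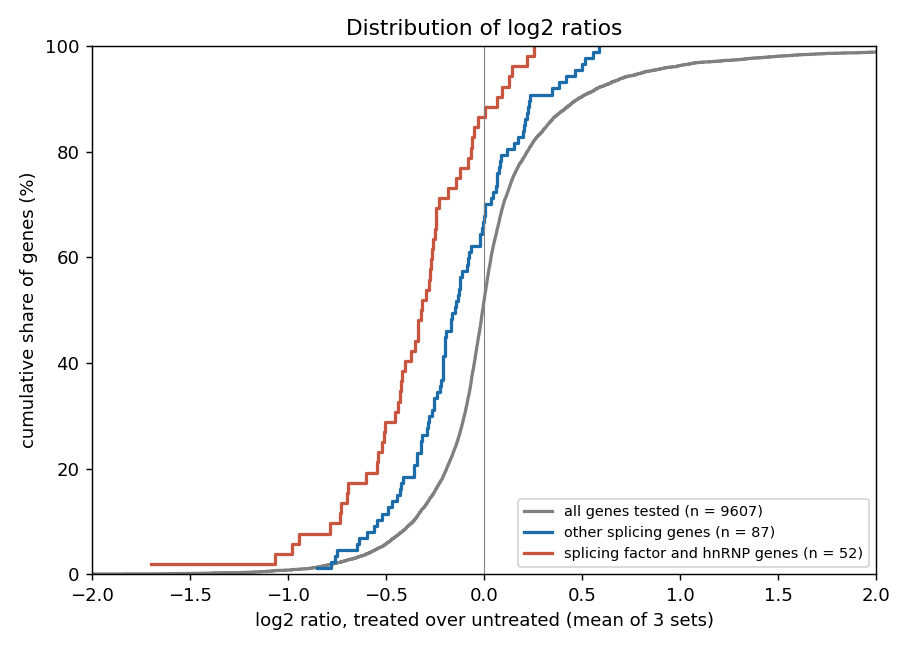
Cumulative share of genes (y axis, %) against the log2 ratio of treated over untreated cells (x axis, mean of 3 sets) for the 52 members, 87 other splicing genes and all 9607 genes tested. The member curve crosses its median at -0.32, left of the other splicing genes at -0.15 and of all genes at -0.0076.

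Sfpq and Nono are partners in paraspeckles, nuclear bodies that hold back RNA, and both act in splicing and transcription. Sfpq had the lowest ratio of all members. It stood at -1.64, -2.46 and -1.07 in the Cy5 orientation and -1.55, -2.52 and -0.96 in the Cy3 orientation, in sets 1, 2 and 3. All 6 arrays were below 0, and within each set the 2 orientations lay close together while the sets lay far apart. Sfpq fell 3.25-fold, to 30.8% of the untreated value (-1.70 ± 0.74, n = 3, adjusted p = 0.00231, limma). Its call ended under robust variance moderation (adjusted p = 0.0641) and with missing ratios kept as values of 0 (0.0556). Sfpq had no missing ratio, and its log2 ratio was -1.70 in both, so only the p-value changed. With zeros kept in this way, Srsf2 was the only tested member whose log2 ratio changed.

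Nono stood nearer to 0, a difference from Sfpq that was not tested. It stood at -0.45, -0.32 and -0.18 in the Cy5 orientation and -0.38, -0.47 and -0.23 in the Cy3 orientation. All 6 arrays were below 0, set 3 nearest to it. Nono fell 1.26-fold (-0.34 ± 0.12, adjusted p = 0.0159, limma), and its 2 probes were close, at -0.38 and -0.30. Leaving out set 1 (adjusted p = 0.0961) or set 2 (0.0752) ended its call, as did the Cy5 orientation alone (0.0767).

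SR proteins bind exonic enhancers through RNA recognition motifs and meet the spliceosome through arginine-serine tails. They fell in 5 of 6 tested genes, against 14.6% of all genes, with a median of -0.56. Whether this or any role group below differs from all genes was not tested. Srsf3, a small SR protein that also takes part in mRNA export, stood at -1.07, -1.38 and -0.85 in the Cy5 orientation and -0.97, -1.46 and -0.69 in the Cy3 orientation. All 6 arrays were well below 0, set 2 lowest. It fell 2.10-fold (-1.07 ± 0.33, adjusted p = 0.000896, limma) and passed in all 14 alternatives run. Srsf2, also known as SC35 and a mark of nuclear speckles, stood at -0.86, -1.37 and -0.43 in the Cy5 orientation and -0.995, -1.65 and -0.58 in the Cy3 orientation. Set 2 was lowest and set 3 nearest to 0 in both orientations. It fell 1.97-fold (-0.98 ± 0.50, adjusted p = 0.00555, limma), and its 2 complete probes stood at -1.03 and -0.93. With missing ratios kept as values of 0, which brings in 1 more probe, the adjusted p was 0.0670.

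Srsf5 followed with sets at -0.69, -0.65 and -0.47, a fall of 1.52-fold (-0.60 ± 0.12, adjusted p = 0.00141, limma). Srsf6 (-0.37, -0.90 and -0.23, adjusted p = 0.0254) and Srsf9 (-0.24, -0.41 and -0.30, adjusted p = 0.0156) fell less in limma. Srsf6 was no longer called without set 1 or 2 (adjusted p = 0.0589 and 0.0655), in the Cy5 orientation alone (0.115) or with zeros kept (0.134). Srsf9 was no longer called without set 2 (0.0785) or in the Cy3 orientation alone (0.107). Srsf10, a splicing repressor when dephosphorylated, was the exception and is described with the sets below.

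The 250 bases before the start site of Sfpq, Srsf3 and Srsf2, the genes with the 3 lowest ratios, are shown so that their promoters can be set side by side. They are RefSeq sequences of build GRCm38.p6, on the strand of the gene, with capitals marking the motifs searched on both strands. The windows lie at chr4:127021051-127021300, plus strand (Sfpq), chr17:29032410-29032659, plus strand (Srsf3) and chr11:116853095-116853344, minus strand (Srsf2).
Sfpq: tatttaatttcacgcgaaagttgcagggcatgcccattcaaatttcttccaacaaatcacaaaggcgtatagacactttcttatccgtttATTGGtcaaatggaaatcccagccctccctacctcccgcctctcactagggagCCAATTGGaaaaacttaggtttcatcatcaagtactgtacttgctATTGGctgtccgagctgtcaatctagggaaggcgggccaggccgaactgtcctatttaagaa
Srsf3: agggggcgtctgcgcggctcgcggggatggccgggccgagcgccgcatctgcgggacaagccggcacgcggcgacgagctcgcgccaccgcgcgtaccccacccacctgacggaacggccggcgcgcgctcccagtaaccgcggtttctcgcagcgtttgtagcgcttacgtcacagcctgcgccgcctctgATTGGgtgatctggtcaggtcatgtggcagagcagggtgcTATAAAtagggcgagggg
Srsf2: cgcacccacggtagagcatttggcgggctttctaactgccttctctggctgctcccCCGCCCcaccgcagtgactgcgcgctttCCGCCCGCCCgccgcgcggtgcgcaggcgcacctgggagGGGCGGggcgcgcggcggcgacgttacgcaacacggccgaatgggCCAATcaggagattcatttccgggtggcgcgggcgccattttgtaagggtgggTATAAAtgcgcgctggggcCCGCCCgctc
The motifs searched were the TATA box as TATAAA, the CCAAT box as its name spells it, the GC box as GGGCGG, the E-box as CACGTG, the ETS core as CCGGAAG and the cyclic AMP response element as TGACGTCA. No motif contains another. TATAAA begins 18 bases before the start in Srsf3 and 29 bases before it in Srsf2, and these letters are not in the Sfpq window. Matches to CCAAT in Sfpq begin 160, 107, 104 and 62 bases before the start, on the gene's strand at 107 and on the other strand elsewhere, and those at 107 and 104 overlap. Srsf3 has a CCAAT match on the other strand at 58 and Srsf2 one on its own strand at 82. GGGCGG matches begin 194, 166, 162, 127 and 10 bases before the start of Srsf2, on its own strand at 127, and the other windows have none.

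Such windows were held for 53 of the 59 genes, 69 windows in all because some genes have several starts. The CCAAT box was in 47.8% of them, against 33.8% of all 32851 windows of the same length. GGGCGG was in 53.6% against 32.7%, and CCGGAAG in 17.4% against 6.91%. TATAAA was in 8.70% against 12.4%, CACGTG in 7.25% against 6.02% and TGACGTCA in 4.35% against 1.55%. These shares describe the windows and were not tested.

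hnRNP proteins fell in 7 of 9 tested genes, against 14.6% of all genes, with a median of -0.45. Hnrnpr, which binds nascent RNA and is close to Syncrip, stood at -0.65, -0.96 and -0.57 in the Cy5 orientation and -0.65, -1.24 and -0.64 in the Cy3 orientation. It fell 1.72-fold (-0.78 ± 0.27, adjusted p = 0.00209, limma). Hnrnpm, a splicing regulator that binds GU-rich RNA, stood at -0.64, -1.06 and -0.86 in the Cy5 orientation and -0.30, -1.03 and -0.52 in the Cy3 orientation. It fell 1.66-fold (-0.74 ± 0.29, adjusted p = 0.00321, limma). In both genes set 2 was lowest in each orientation.

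Hnrnpa1, which represses exons from silencer elements, varied least among the called hnRNP genes. It stood at -0.48, -0.42 and -0.41 in the Cy5 orientation and -0.47, -0.47 and -0.33 in the Cy3 orientation. All 6 arrays lay within a narrow band below -0.3, and the fall was 1.35-fold (-0.43 ± 0.057, adjusted p = 0.00401, limma). Ptbp1, which silences exons through pyrimidine tracts and is also called hnRNP I, stood at -0.33, -0.50 and -0.39 in the Cy5 orientation and -0.28, -0.52 and -0.39 in the Cy3 orientation. It fell 1.32-fold (-0.40 ± 0.10, adjusted p = 0.00707, limma).

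The other hnRNP genes called were Hnrnph1 (sets -0.41, -0.70 and -0.52), which binds G tracts, Hnrnpl (sets -0.55, -0.77 and -0.30), which binds CA repeats, and Hnrnpu (sets -0.31, -0.76 and -0.30), a scaffold protein of the nucleus. Their falls of 1.46-fold, 1.45-fold and 1.37-fold had adjusted p-values of 0.00279, 0.00683 and 0.0176 in limma. Hnrnpa0 (-0.19 ± 0.17, adjusted p = 0.155) and Hnrnpdl (0.065 ± 0.13, adjusted p = 0.610) were not called by limma. Hnrnpu lost its call without set 2 (adjusted p = 0.0563) and in the Cy5 orientation alone (0.0623). With missing ratios kept as values of 0, Hnrnpu (0.0974) and Hnrnpl (0.0585) were not called.

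LSm proteins form rings that sit on U6 snRNA in the nucleus, as LSm2 to LSm8, or on mRNA bound for decay in the cytoplasm, as LSm1 to LSm7. Of 10 tested LSm genes 7 fell, against 14.6% of all genes, with a median of -0.38. In the shared part of both rings, Lsm2 to Lsm7, 5 of 6 genes fell. Lsm6 stood at -0.78, -1.06 and -0.67 in the Cy5 orientation and -0.94, -1.37 and -0.85 in the Cy3 orientation. It fell 1.92-fold (-0.94 ± 0.24, adjusted p = 0.000640, limma), the lowest adjusted p of all members. Lsm2 (sets -0.59, -0.95 and -0.66) fell 1.66-fold (adjusted p = 0.00123, limma), and Lsm3 (sets -0.58, -1.05 and -0.47) 1.63-fold (adjusted p = 0.00450, limma). Lsm7 (-0.23, -0.52 and -0.52) and Lsm4 (-0.33, -0.42 and -0.51) each fell 1.34-fold (adjusted p = 0.00954 and 0.00529, limma). In every set these 5 genes were below 0. Lsm7 was not called without set 2 (adjusted p = 0.0510) or with zeros kept (0.0517), Lsm3 was not called with zeros kept (0.0574), and Lsm4 was not called in the Cy5 orientation alone (0.0913).

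Outside that shared part, Lsm1, which marks the cytoplasmic ring, fell 1.21-fold (-0.28 ± 0.12, adjusted p = 0.0346, limma), and Lsm12 was called lower at -0.25 ± 0.028 (adjusted p = 0.0332, limma). Both ceased to be called without set 1 (adjusted p = 0.0785 and 0.134), without set 2 (0.159 and 0.0884) and in each orientation alone. Lsm12 also lost its call without set 3 (adjusted p = 0.0980), and Lsm1 with zeros kept (0.0717). Lsm11, a part of the U7 snRNP that trims histone mRNA, stood at 0.13 ± 0.11 and Lsm14a, a protein of cytoplasmic P bodies, at 0.14 ± 0.16, and limma called neither (adjusted p = 0.269 and 0.262).

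Proteins of the snRNPs fell in 3 of 11 tested genes, against 14.6% of all genes, with a median of -0.23. In the Sm core, the ring shared by the U1, U2, U4 and U5 snRNPs, Snrpg (sets -0.25, -0.59 and -0.47) fell 1.35-fold (adjusted p = 0.00912, limma) and Snrpd3 (sets -0.20, -0.33 and -0.36) 1.23-fold (adjusted p = 0.0204, limma). Snrpg was not called in the Cy5 orientation alone (adjusted p = 0.0664) or with zeros kept (0.0529). Snrpd3 was above 0 on 1 array, and it was not called without set 2 (adjusted p = 0.0853), without set 3 (0.0581) or in either orientation alone. Snrpa, the U1 protein that binds a loop of U1 RNA, fell 1.25-fold (-0.32 ± 0.13, adjusted p = 0.0209, limma), but was not called without set 2 (0.0886), without set 3 (0.0588), in the Cy5 orientation alone (0.168) or with zeros kept (0.0589). The U1 protein Snrpc (-0.27 ± 0.20) and the core protein Snrpd2 (-0.23 ± 0.10) were not called by limma (adjusted p = 0.0655 and 0.0561). Both were called lower in the Cy5 orientation alone (0.0235 and 0.0436), and Snrpc also without set 1 (0.0357). In the Cy3 orientation alone they stood at -0.040 and -0.091 and were not called (adjusted p = 0.798 and 0.489, limma). Snrpa1, a U2 protein, stood at -0.14 ± 0.15, Snrpn, an Sm protein from an imprinted gene, at -0.085 ± 0.14 and the pseudogene Snrp1c-ps2 at -0.029 ± 0.13, with no call. Snrpd1, Snrpe and Snrpb2 are described with the sets below.

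Among 6 factors of the branch site and the 3′ splice site, 2 fell, against 14.6% of all genes, and the median was -0.25. Sf3b1, the large SF3B subunit that holds the branch site and is often mutated in blood cancers, stood at -0.995, -0.93 and -0.27 in the Cy5 orientation and -0.84, -0.79 and -0.35 in the Cy3 orientation. Set 3 was nearest to 0 in both orientations. The fall was 1.62-fold (-0.70 ± 0.33, adjusted p = 0.00597, limma), and with missing ratios kept as values of 0 its adjusted p was 0.0680. Sf3a3 was called lower at -0.28 ± 0.14 (adjusted p = 0.0393, limma), but it stood at -0.27, -1.08 and -0.34 in the Cy5 orientation and -0.19, 0.20 and 0.017 in the Cy3 orientation. Its mean was -0.57 in the Cy5 orientation and 0.0067 in the Cy3 orientation. It was not called without set 1 (adjusted p = 0.112), without set 2 (0.179), in the Cy5 orientation alone (0.0581) or with zeros kept (0.0905).

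U2af1, which reads the AG at the end of an intron, stood at -0.14, -0.41 and -0.32 in the Cy5 orientation and -0.017, -0.57 and -0.13 in the Cy3 orientation. All 6 arrays were below 0, but at -0.26 ± 0.21 it was not called (adjusted p = 0.0756, limma). Sf3a1 (-0.25 ± 0.15, adjusted p = 0.0623), Sf3b3 (-0.067 ± 0.080, adjusted p = 0.561) and Sf3b6 (-0.060 ± 0.099, adjusted p = 0.621) were not called by limma either. Sf3a1 was called lower in the Cy5 orientation alone (adjusted p = 0.0412), but in the Cy3 orientation alone it stood at -0.082 (0.544). Within SF3B the called fall of Sf3b1 thus stood beside values near 0 for Sf3b3 and Sf3b6, and the difference between these genes was not tested.

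Of 8 tested PRP factors 3 fell, against 14.6% of all genes, with a median of -0.19. Prpf19, a ubiquitin ligase and core of the complex that activates the spliceosome, had sets at -0.37, -0.70 and -0.46 and fell 1.43-fold (adjusted p = 0.00478, limma). Prpf18, which acts in the second splicing step, had sets at -0.46, -0.40 and -0.26 and fell 1.30-fold (adjusted p = 0.00925, limma), but was not called without set 1 (0.0638) or in the Cy5 orientation alone (0.0587). Prpf8, the scaffold at the catalytic centre, had sets at -0.16, -0.32 and -0.30 and fell 1.20-fold (adjusted p = 0.0351, limma). It was not called when set 1, 2 or 3 was left out (adjusted p = 0.0697, 0.140 and 0.0963). Nor was it called in the Cy5 orientation alone (0.305) or with zeros kept (0.0538). Prpf31 (-0.25 ± 0.25), Prpf3 (-0.12 ± 0.14), Prpf4b (-0.050 ± 0.41) and Prpf4 (0.0055 ± 0.053) were not called by limma. Prpf4 was above 0 on all 3 arrays of the Cy5 orientation and below 0 on all 3 of the Cy3 orientation, and limma's dye term gave it an adjusted p of 0.321.

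Prpf40b, which helps U1 find the 5′ splice site, was the member above 0 on all 6 arrays. It stood at 0.25, 0.24 and 0.053 in the Cy5 orientation and 0.26, 0.37 and 0.14 in the Cy3 orientation. At 0.22 ± 0.11 it was not called (adjusted p = 0.0705, limma), and its 2 probes stood at 0.16 and 0.27. Without set 3 it was called higher (0.28, adjusted p = 0.0449, limma).

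Of the 52 members 0 passed the dye test in limma (lowest adjusted p = 0.220), against 0.364% of all genes, and at an unadjusted p under 0.05 8 members did, against 16.2% of all genes. Set 2 had the lowest of the 3 set values in 29 of 52 members, against 3690 of 9607 genes tested, and in 19 of the 29 called members, against 711 of the 1400 genes called lower. The median member stood at -0.25, -0.41 and -0.30 in sets 1, 2 and 3, and the median of all genes lay between -0.013 and 0.0026.

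In 5 members set 3 lay above 0 and more than 0.5 above sets 1 and 2, which were both below 0. The same pattern was seen in 129 of 9607 genes (1.34%), and these members are singled out after their values were seen. It is not particular to the members. Of the other splicing genes listed below, Qk (sets -0.28, -0.51 and 1.48), Mbnl1 (-0.50, -0.89 and 0.60), Ptbp2, Ddx5 and Dhx15 showed it too. Srsf10 stood at -0.88, -1.26 and 0.65 in the Cy5 orientation and -0.95, -1.45 and 0.75 in the Cy3 orientation. Set 3 was high in both orientations. Its mean of -0.52 ± 1.08 was not called (adjusted p = 0.327, limma), and without set 3 it was -1.14. Snrpb2, a U2 protein, stood at -0.32, -0.25 and 1.26 in the Cy5 orientation and -0.15, -0.26 and 1.25 in the Cy3 orientation. Its mean was 0.26 ± 0.87 (adjusted p = 0.572, limma), and without set 3 it was -0.25.

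Lsm5 had sets at -0.66, -0.85 and 0.49, Snrpd1 at -0.54, -0.72 and 0.20 and Snrpe at -0.15, -0.24 and 0.67. None of these 3 was called by limma (adjusted p = 0.357, 0.171 and 0.764). Without set 3, Lsm5 stood at -0.76, Snrpd1 at -0.63 and Snrpe at -0.20. No p-value without set 3 is given for the 5 members, because they were picked for their set 3 values. Both arrays of set 3 showed the pattern in each of the 5 members. Over the 52 members, arrays of set 3 correlated with those of sets 1 and 2 at 0.234 to 0.509, and the other pairs of arrays at 0.759 to 0.899. Over all complete probes the ranges were 0.652 to 0.835 and 0.622 to 0.852. These correlations are across genes, which share arrays and are not independent. Those over the 52 members include the 5 picked for their set 3 values, so they are no separate sign that set 3 differs. What set 3 differs in was not tested.

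**Figure D3:**
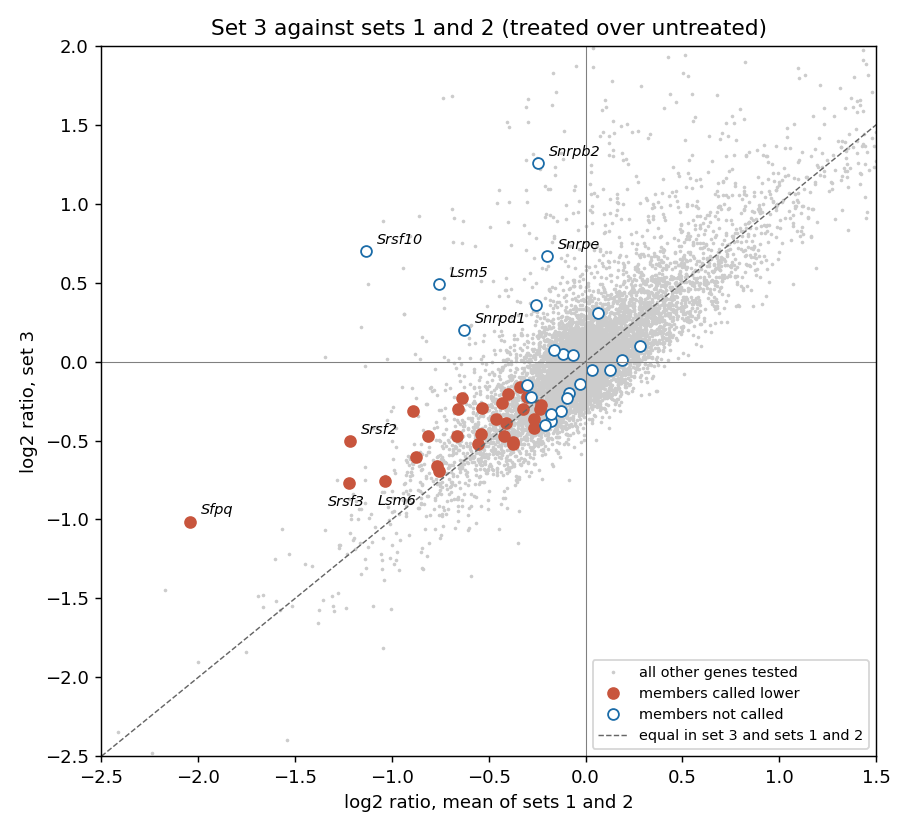
Log2 ratio of treated over untreated cells in set 3 (y axis) against the mean of sets 1 and 2 (x axis). Filled points are the 29 members called lower, open points the 23 members not called, and grey points all other genes tested within the axis limits. Srsf10, Lsm5, Snrpd1, Snrpe and Snrpb2 lie above 0 in set 3 and below 0 in sets 1 and 2.

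Over the 6 arrays Sfpq was most alike in pattern to Fasn (Pearson r = 0.998), Hmgb2 (0.998), Csgalnact2 (0.996), Trdmt1 (0.994) and Pcna (0.992) among non-members, and to Srsf3 (0.989) and Srsf2 (0.965) among members. These r describe 6 arrays that share sets and were picked as the highest of all genes tested. Fasn, a fatty acid synthase, had sets at -1.03, -1.37 and -0.84, and Hmgb2, a chromatin protein, at -0.96, -1.32 and -0.67. Pcna, a clamp of DNA replication, had a mean of -0.30, and Csgalnact2 and Trdmt1 had means of -0.10 and 0.079.

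For 7 genes no probe had a ratio on every array. Hnrnpa2b1, a close relative of Hnrnpa1 that also sorts RNA, had ratios on 4 arrays, at -0.999 in set 2 and -0.54 in set 3 of the Cy5 orientation and at -1.42 and -0.59 in those of the Cy3 orientation. All 4 were below 0. Over those 2 sets it stood at -0.89 ± 0.46 (SD, n = 2) and was called lower when genes with 2 complete sets were let in (adjusted p = 0.0102, limma). Snrpf, an Sm core protein, had sets 1 and 2 at -0.25 and -0.44 and was also called lower there (adjusted p = 0.0463, limma). Srsf1, the founding SR protein, stood at -0.10 and Prpf6 at -0.021 over 2 sets each, with no call (adjusted p = 0.588 and 0.911, limma). Hnrnpab had a ratio on 1 array, at -0.13, and Hnrnpc and Hnrnpk were listed at 0 on all 6 arrays.

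A wider list of 130 other splicing genes was set beside the members, of which 87 were tested. Of these 26 (29.9%) fell and 7 rose, with a median of -0.15, while 14.6% of all genes tested were called lower and 16.8% higher. Dhx9, an RNA helicase, was lowest with sets at -0.53, -1.62 and -0.41, followed by Pspc1 (-0.66, -1.08 and -0.59), a paraspeckle protein of the Sfpq and Nono family, and Syncrip (-0.58, -1.13 and -0.58), which is also known as hnRNP Q. They fell 1.81-fold, 1.72-fold and 1.70-fold (adjusted p = 0.0249, 0.00192 and 0.00370, limma). Dhx9 was not called with robust moderation of variances (adjusted p = 0.168) or with zeros kept (0.157), nor Syncrip with zeros kept (0.0538).

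The called genes of the list that rose most were Clk1, Cwc27 and Clk4. Clk1 and Clk4 are kinases that phosphorylate SR proteins, and Cwc27 is a spliceosomal protein. They rose 1.47-fold, 1.43-fold and 1.42-fold (adjusted p = 0.0385, 0.00239 and 0.00283, limma). Of the 8 tested kinases of SR proteins, Clk1 and Clk4 rose and 0 fell by limma, against 16.8% and 14.6% of all genes. At an unadjusted p under 0.05, 4 were higher and 0 lower, against 2002 and 1860 of all 9607 genes. Whether these 8 genes differ from all genes was not tested. Clk1 stood at 0.097, 0.54 and 1.02 in sets 1, 2 and 3, and it was not called without set 2 (adjusted p = 0.118), in the Cy5 orientation alone (0.111), under robust variance moderation (0.0919) or with zeros kept (0.179). Without set 2, 14 genes of the list fell and 4 rose, against 9.90% and 13.7% of all genes.

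Probe sequences were not analysed here. Hnrnpa1, the Sm and LSm genes and several SR genes have related copies or pseudogenes elsewhere in the genome, and Snrpc has the pseudogene Snrp1c-ps2 on the same array, so which copy a probe reads is uncertain.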

How the data were processed

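RNA of treated and untreated RAW 264.7 cells was co-hybridised to 6 arrays of 16281 probes in 2 colours. The authors' deposited table holds log2 ratios between the channels, a unit inferred from the values. How the authors corrected background and normalized is not given here, and intensities were not analysed. Deposited medians are 0 on every array, the highest log2 ratio is 6.64 (a ratio of 100), and a value of exactly 0 was taken as missing.

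Ratios were signed so that treated stands over untreated. Only the 13418 probes with 6 ratios were kept, and those naming 1 gene in the platform annotation were averaged to 9607 genes. All 59 member symbols matched the GRCm38.p6 gene table through Entrez identifiers. Both orientations of a set were averaged, and a two-sided limma 3.58.1 model (lmFit, eBayes; R 4.3.3) compared the 3 sets with 0. A second model over 6 arrays had a dye term. Simulated data, with 50 changed genes per size, were used to check the model first. It recovered 0% of log2 changes of 0.3, 44% of those of 0.5 and 92% of those of 1. Far fewer genes changed there than were called in the real data. A gene that was not called can therefore still have changed.

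The 14 alternatives covered missing values, probe averaging, centring, quantile normalization, variance moderation, the replicate block, each orientation alone and leaving out each set. The members, motifs and lists were chosen with earlier results of these data known. Every member is given. Values on all arrays are given for Sfpq, Nono, Ptbp1, U2af1, Srsf3, Hnrnpa1, Hnrnpa2b1, the 6 largest called falls, and Sf3b1, Sf3a3, Srsf10, Snrpb2 and Prpf40b, the last 5 chosen after their values were seen. Of the other splicing list the called genes with the 3 highest and 3 lowest ratios are named, and the 5 genes outside the members most correlated with Sfpq. Figures were drawn with Python 3.11.15.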

Additional observations from a re-analysis of the deposited data

How the results depend on the processing

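Across 14 alternatives, 10 of the 29 called members passed each time (Hnrnpa1, Hnrnph1, Hnrnpm, Hnrnpr, Lsm2, Lsm6, Prpf19, Ptbp1, Srsf3 and Srsf5). The share of all genes called lower that did so is not given here, so this count has no background beside it. The count of 29 lower members ranged from 18 to 28 when a set was left out. It was 16 of 59 with exact zeros kept, where 903 of 10698 genes were called lower. The count of 0 higher members was 1 (Prpf40b) without set 3, with the probe nearest to the gene mean, with the 6 arrays as separate replicates and no replicate block, and with the set number as a random replicate block. Deviations of same-numbered arrays from their orientation means correlated at 0.219, 0.0789 and 0.570 over all genes in sets 1, 2 and 3, and at 0.759, 0.629 and 0.945 over the 52 members. The values over the 52 members include the 5 picked for their set 3 values. The labels do not say what a set number shares, so whether it pairs the arrays is not settled. With the set number as a random replicate block (correlation 0.393) 30 members were lower, against 14.9% of all genes, and with no replicate block 32 were, against 18.1%. The block ended the calls of Snrpd3 (adjusted p = 0.114) and Sf3a3 (0.242, and 0.0850 with no block). It brought calls for Snrpd2 (0.0339), Sf3a1 (0.0383), Snrpc (0.0414) and Prpf40b (0.0418) in limma, which with no block had 0.0152, 0.0195, 0.0236 and 0.0203, and U2af1 passed with no block (0.0349). The 26 lower and 7 higher other splicing genes ranged from 14 to 28 and from 4 to 8 without a set. Over all genes these shares were 9.90% to 14.7% lower and 12.4% to 16.4% higher. In the Cy5 orientation alone 15 were lower and 4 higher (10.4% and 12.1% of all genes). With exact zeros kept 12 were lower (8.44%), and with no replicate block 11 were higher (19.9%). The cause was not tested.

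In the Cy3 orientation alone the called member Sf3a3 turned to 0.00666, and the uncalled Lsm14a to -0.065, Prpf4 to -0.11, Prpf4b to 0.28, Sf3b3 to 0.00613, Sf3b6 to 0.16 and Snrpn to 0.074. In the Cy5 orientation alone Lsm11 turned to -0.047 and Snrp1c-ps2 to 0.10. Leaving out a set moved uncalled Prpf4 between -0.019 and 0.034, Prpf4b between -0.25 and 0.16, Snrp1c-ps2 between -0.071 and 0.048, Snrpb2 between -0.25 and 0.51, Snrpe between -0.20 and 0.26, Csgalnact2 between -0.24 and 0.037 and Trdmt1 between -0.13 and 0.29. Signal over background was not analysed here.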
